A study of Mus musculus with 26 samples.

Results

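The effect of Dux knockdown under Zscan4 overexpression was read from 4 of the 26 bulk RNA-seq libraries of the series, 2 labelled Dux KD Zscan4 OE and 2 labelled Zscan4 OE. The members were chosen by label alone. All libraries came from R1, a line of mouse embryonic stem cells (ESC), grown on gelatin in medium with LIF, and were made from poly(A) RNA. The 2 Zscan4 OE libraries have the genotype WT and 24 h of doxycycline (dox) as treatment. A protocol shared by the series names 4 µg/mL dox, in words written for DUX. The 2 Dux KD Zscan4 OE libraries have the genotype Dux KD, while their treatment is given as "no" and no time is stated, so that induction with dox rests on their titles alone. Untreated WT ESCs, again 2 libraries, gave the reference level outside the comparison. Neither the hairpin that was sequenced, nor the transgene, nor whether a group is 1 clone is given for these libraries. A control hairpin with Zscan4 OE was not analysed here. The effects of the hairpin, of the line and of any difference in dox therefore cannot be told apart.

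Dux is a double homeobox transcription factor of the early mouse embryo, where it binds and switches on genes of the 2-cell (2C) stage and the MERVL retrotransposon. Zscan4 genes form a cluster of near-identical copies that encode zinc finger proteins of the same stage. In cultures of ESCs both are active in rare cells only, and Zscan4 proteins are known for a role in telomere maintenance there. Bulk RNA-seq averages over the culture, so that fewer cells of a type and less RNA per cell cannot be told apart.

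The 4 libraries held 16150743 and 14401452 reads on genes in Dux KD Zscan4 OE and 15566922 and 18579218 in Zscan4 OE. Levels are given as CPM, the read count of a gene scaled to the size of its library. A level of 3 counts, 0.0796 to 0.226 CPM over the series, was taken as the floor. The 2 knockdown replicates differed from each other more than the replicates of the other groups did. A chi-square statistic of their counts per degree of freedom was 26.1, against 2.59 in Zscan4 OE and 1.81 in ESC, and 2381 genes lay at least 2-fold apart between them, against 1466 and 1360. The labels do not say that replicates were separate cultures, so the p-values measure only the spread between libraries, which may be technical. That spread was estimated from all 26 libraries together, and not from the knockdown replicates alone. The cell type fitted the label: the 12 ESC markers summed to 9213 and 7474 CPM with the knockdown, 8136 and 8042 CPM in Zscan4 OE and 6863 and 6919 CPM in ESC, and none of them was called changed. Of 15 fibroblast and feeder markers, 4 had no read in any of the 4 libraries and 8 were at the floor in all 4, with summed levels of 82.1 and 56.8 CPM against 63 and 63.5 CPM.

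In the count table the gene under knockdown appears as Duxf3, from the Dux repeat (chr10:58229979-58232675, minus strand, GRCm38). It had 1 and 0 reads in the knockdown libraries and 27 and 17 reads in Zscan4 OE, which is at least 6.35-fold lower (edgeR adjusted p = 1.81e-04), and ESC had 3 and 0 reads. Zscan4c (chr7:11005745-11010547, plus strand), the best studied member of its cluster, stood at 0.779 and 1.13 CPM in Dux KD Zscan4 OE, 99.98 and 103 CPM in Zscan4 OE and 5.73 and 6.13 CPM in ESC. The 2 Dux KD Zscan4 OE libraries, although titled as overexpressing Zscan4, held less Zscan4c RNA than untreated ESCs, with no overlap (log2 fold change against ESC -2.65, standard error 0.24, edgeR adjusted p = 3.58e-09). Over the other 22 libraries Zscan4c ranged from 0.0628 to 2675 CPM. Whether reads of a transgene were counted on this gene was not tested. Copies of Dux and of Zscan4 share reads, which leaves each single value uncertain.

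The promoters of the Zscan4 genes are shown because they carry the Dux motif, searched as TGATT, any 2 bases and ATCA on both strands, and were among the genes with the deepest falls. RefSeq (GRCm38.p6) gave 250 bases before to 50 after the start of each gene. Of 32851 promoters 0.207% held the motif, whereas all 4 Zscan4 promoters of that table held 1 match each. Counted from the start site, the matches begin at -91 in Zscan4b and Zscan4f, at -114 in Zscan4c and at -125 in Zscan4d. Windows of 71 bases follow, 5′ to 3′ on the strand of the gene, with the match in capitals, read there as the reverse complement of the pattern. They lie at chr7:10905101-10905171 (minus), chr7:11005601-11005671 (plus), chr7:11166233-11166303 (minus) and chr7:11397794-11397864 (plus).
Zscan4b: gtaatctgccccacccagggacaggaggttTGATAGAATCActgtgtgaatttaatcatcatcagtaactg
Zscan4c: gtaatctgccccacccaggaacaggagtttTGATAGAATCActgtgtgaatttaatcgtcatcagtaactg
Zscan4d: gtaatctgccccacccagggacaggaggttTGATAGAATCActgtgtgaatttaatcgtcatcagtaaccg
Zscan4f: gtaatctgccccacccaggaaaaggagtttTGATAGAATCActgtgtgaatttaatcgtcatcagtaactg

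Of the 650 genes that fell and had a promoter in the table, 5 held the Dux motif, against 18 of 13364 tested genes, and no gene of the 677 that rose did. Besides the 4 Zscan4 genes, which share sequence, this was Abcb5, an ABC transporter gene named here after its values were seen. Abcb5 measured 0.649 and 0.527 CPM with the knockdown, 6.21 and 7.17 CPM in Zscan4 OE and 0.1246 and 0.2000 CPM in ESC (log2 fold change -3.49 ± 0.36 SE, adjusted p = 3.28e-08 by edgeR). Its knockdown level lay between the other groups. Its window, at chr12:118966457-118966527 on the minus strand, has its match from position -76.
Abcb5: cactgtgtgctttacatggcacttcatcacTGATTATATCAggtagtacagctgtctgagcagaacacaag

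For the Zscan4 motif, TGCACAC on both strands, 4.4% of all promoters and 4.81% of those of tested genes held a match, against 7.54% (49 genes) among genes that fell and 6.2% (42 genes) among genes that rose. Of the 30 named genes with the largest changes outside the 2C list, described below, 20 had a promoter in the table. Only Xaf1 among these 20 held the Zscan4 motif, and none held the Dux motif. Abcb5, which is not among the 30, held 1 match of the Zscan4 motif beside its Dux motif, and the Zscan4 promoters shown above held none.

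A gene was called changed at an edgeR adjusted p under 0.05 and a fold change of at least 2 (1 on the log2 scale). Of 20953 genes tested, 1212 were higher with the knockdown (5.78%) and 1120 were lower (5.35%). The counts of called genes in the lists below are to be read beside these shares. At an unadjusted p under 0.05 there were 8724, and the median log2 fold change over all tested genes was 0.01. Genes of the 2C list made up a small part of these calls: 35 of 43 tested members fell and 1 rose, with a median log2 fold change of -5.04, or -3.64 over the 39 members that were above the floor in at least 1 group when levels were raised to the floor. The other genes are described below, first those that fell.

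Outside the 2C list, the 15 named genes with the deepest falls were led by 3 further Zscan4 copies and by Lefty1 (chr1:180935022-180938400, plus strand), a secreted inhibitor of Nodal. Zscan4-ps3 had 0.844 and 0.678 CPM against 127 and 102 CPM in Zscan4 OE, Zscan4-ps2 had 0.454 and 0.151 against 52.4 and 56.3 CPM, and Zscan4-ps1 had 3.51 and 2.71 against 20.9 and 24 CPM. The first 2 of these copies lay below ESC with the knockdown, whereas Zscan4-ps1 lay above it. Lefty1 measured 5.58 and 5.27 CPM in the knockdown libraries, 54.6 and 51.8 CPM in Zscan4 OE and 7.23 and 9.26 CPM in ESC. Both knockdown values were below both ESC values and far below those in Zscan4 OE (log2 fold change -3.29 ± 0.17 SE, adjusted p = 4.02e-14 by edgeR). Lefty2, its neighbour in function, fell as well, with 38.4 and 23.7 CPM against 94 and 92.8 CPM, and its knockdown values overlapped those of ESC at 24 and 28.1 CPM (log2 fold change -1.58 ± 0.14 SE, adjusted p = 1.33e-09 by edgeR).

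The remaining genes of this group encode regulators and proteins of several tissues, and for 13 of the 15 the 2 Zscan4 OE libraries lay above the 2 ESC libraries. The 15 were picked for their fall from Zscan4 OE, a choice that favours high values there. The same count over all genes is not given. Neurod1, a helix-loop-helix factor of neurons and endocrine cells, measured 1.43 and 3.16 CPM with the knockdown, 12.9 and 13.7 CPM in Zscan4 OE and 1.49 and 1.53 CPM in ESC (log2 fold change -2.56 ± 0.32 SE, adjusted p = 6.32e-07 by edgeR). Its knockdown values overlapped ESC, as did those of Tbc1d9 (-2.62), Cldn6 (-2.19), Arhgef26 (-2.08) and Ripply1 (-2.05), the values being log2 fold changes against Zscan4 OE. A second set fell below ESC. Dmrt1 (chr19:25505618-25604329, plus strand), a factor of germ cells, measured 13.7 and 13.6 CPM with the knockdown, 57.4 and 61.6 CPM in Zscan4 OE and 71.1 and 71.7 CPM in ESC (log2 fold change -2.13 ± 0.10 SE, adjusted p = 1.09e-14 by edgeR). In Zscan4 OE it already lay below ESC, the only 1 of the 15 with that order. Ina, a neuronal intermediate filament, measured 4.35 and 5.65 CPM against 31.5 and 28.8 CPM and 29.2 and 24.3 CPM in ESC (log2 fold change -2.60 ± 0.17 SE, adjusted p = 3.99e-12 by edgeR), and both knockdown values were below every other library of the series, where the lowest was 7.17 CPM. Stra8, a gatekeeper of meiosis, Esrp1, an epithelial splicing regulator, and Jag1, a Notch ligand, also fell below ESC, with log2 fold changes against Zscan4 OE of -2.41, -2.25 and -2.19. The deepest falls among predicted genes were Gm16478 (0.195 and 0.301 CPM against 54.1 and 50.8 CPM), Gm5039 (0.714 and 1.2 against 82.3 and 78.3 CPM) and the small nucleolar RNA gene Gm23201 (4.61 and 2.94 against 13.6 and 14.1 CPM).

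**Figure D1:**
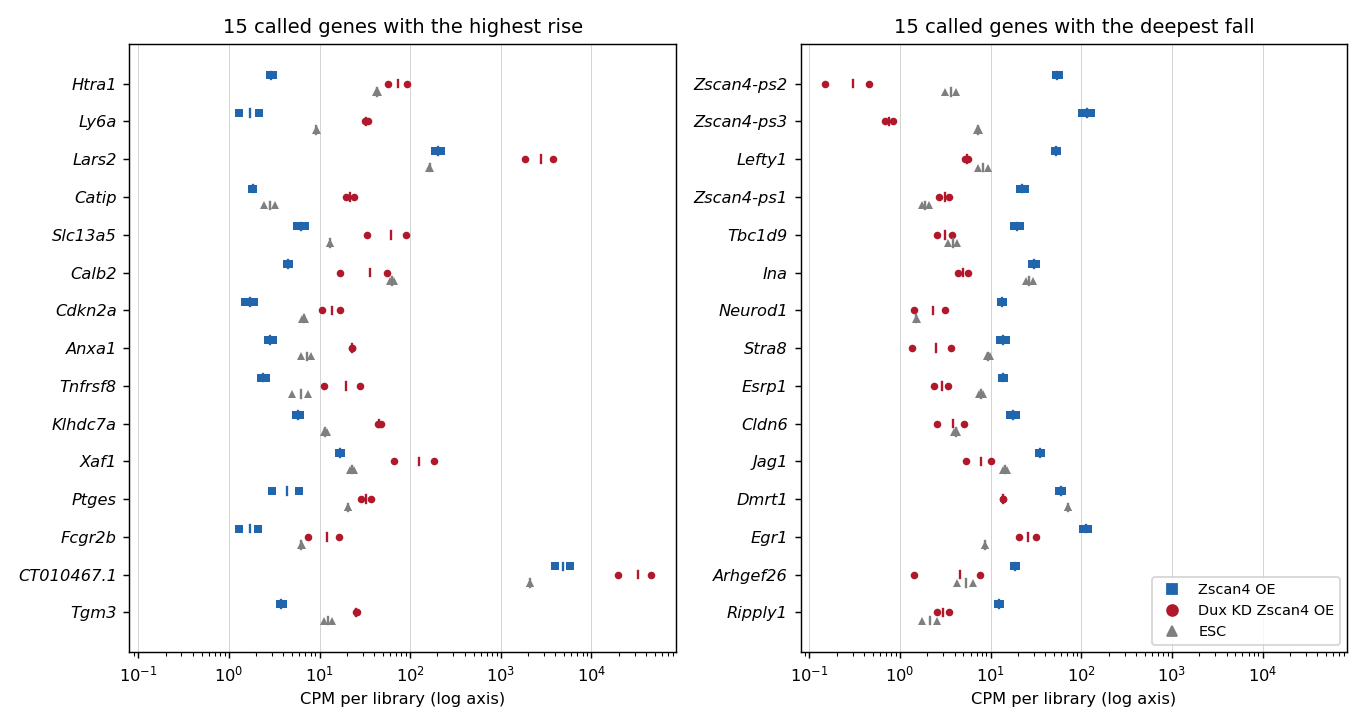
CPM per library, on a log axis, of the 15 named genes with the highest rise (left) and the deepest fall (right) outside the 2C list, with 1 point per library, 2 libraries per group, and a bar at the group mean. On the left the knockdown points lie right of the ESC points in 14 genes, Calb2 being the exception, and on the right they overlap the ESC points in 5 genes and lie left of them in 8.

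Of 21 tested immediate early genes, which cells switch on within minutes of a signal, 6 fell and none rose, against 5.35% of all genes lower, and the median log2 fold change was -0.51. Egr1, a zinc finger factor of this class, measured 31.3 and 20.5 CPM with the knockdown, 106 and 118 CPM in Zscan4 OE and 8.72 and 8.73 CPM in ESC (log2 fold change -2.11 ± 0.17 SE, adjusted p = 3.59e-10 by edgeR). Its knockdown level lay between the other groups, with no overlap. Jun, a subunit of AP-1, measured 5.32 and 4.52 CPM against 14.8 and 15 CPM in Zscan4 OE and 2.87 and 2.8 CPM in ESC, in the same order (log2 fold change -1.59 ± 0.16 SE, adjusted p = 2.53e-08 by edgeR). Fos, its partner, had a log2 fold change of -1.07, Zfp36, which promotes mRNA decay, one of -1.45, Jund one of -1.07, and the phosphatase gene Dusp1 one of -1.03. Without the second knockdown library 3 members were called lower, Jund, Fos and Dusp1 being lost, and without the first 8.

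Targets and feedback inhibitors of FGF and ERK signalling fell in 4 of 18 tested members, with none higher and a median of -0.38. Egr1 is 1 of them. Their share was 22.2%, against 5.35% of all genes lower. Spry4, an inhibitor of the pathway, measured 148 and 133 CPM in the knockdown libraries, 337 and 335 CPM in Zscan4 OE and 246 and 229 CPM in ESC, so that the knockdown was lower than both (log2 fold change -1.25 ± 0.08 SE, adjusted p = 8.46e-12 by edgeR). Spred1, another inhibitor, measured 74.5 and 75.1 CPM against 147 and 166 CPM and 130.3 and 123.2 CPM, again lower than both (log2 fold change -1.07 ± 0.08 SE, adjusted p = 1.84e-10 by edgeR). Dusp4, a phosphatase of ERK, had 3.96 and 6.78 CPM against 15.7 and 16 CPM, and its knockdown values overlapped ESC at 3.61 and 4.4 CPM (log2 fold change -1.58 ± 0.20 SE, adjusted p = 6.61e-07 by edgeR). With an offset for gene length Spred1 was at -0.96 and no longer passed the fold threshold, nor did it without the second Zscan4 OE library. Of the Nodal pathway and mesendoderm, 3 of 17 tested members fell (17.6%) and none rose, Lefty1 and Lefty2 among them. The ligand Nodal itself measured 89.99 and 86.6 CPM against 75.9 and 74.6 CPM (log2 fold change 0.23, edgeR adjusted p = 0.108). In the LIF and STAT3 list Pim1, a kinase gene, was the only called member of 15 tested, a share of 6.67%, near that of all genes. It measured 40.8 and 33.6 CPM in the knockdown, 107 and 112 CPM in Zscan4 OE and 61 and 57.3 CPM in ESC (log2 fold change -1.56 ± 0.09 SE, adjusted p = 5.38e-13 by edgeR).

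Genes of the hypoxia response fell in 4 of 19 tested members and rose in none (median log2 fold change -0.50). The share that fell was 21.1%, against 5.35% of all genes. P4ha2, a collagen prolyl hydroxylase, measured 13.7 and 10.7 CPM in the knockdown libraries, 33.3 and 32.3 CPM in Zscan4 OE and 15.6 and 16.7 CPM in ESC (log2 fold change -1.42 ± 0.11 SE, adjusted p = 2.13e-10 by edgeR). Bnip3, a mitophagy receptor, measured 59.1 and 37.2 CPM against 107 and 109 CPM, above ESC at 32.1 and 34.9 CPM (log2 fold change -1.16 ± 0.12 SE, adjusted p = 3.63e-08 by edgeR). Bhlhe40, a repressor also tied to the circadian clock, had 25.2 and 6.4 CPM against 64.5 and 60.8 CPM (log2 fold change -1.96 ± 0.26 SE, adjusted p = 1.44e-06 by edgeR), and Ndrg1 had 16.2 and 8.88 against 27.6 and 29.3 CPM (log2 fold change -1.17 ± 0.20 SE, adjusted p = 4.61e-05 by edgeR). In each of the 4 the second knockdown library was the lower of the pair. Without it Bnip3 and Ndrg1 lost their calls and 2 members were called lower, and without the first knockdown library 7.

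Of the genes for MHC class I and antigen presentation, 5 of 16 tested fell and none rose, all at low levels. The share that fell was 31.25%, against 5.35% of all genes. Tap1, a subunit of the peptide transporter, measured 1.62 and 1.51 CPM in the knockdown libraries, 4.4 and 4.94 CPM in Zscan4 OE and 1.49 and 1.67 CPM in ESC (log2 fold change -1.58 ± 0.23 SE, adjusted p = 6.80e-06 by edgeR). The knockdown overlapped ESC. H2-Q4, a class I gene, measured 2.34 and 1.51 CPM against 4.98 and 5.21 CPM (log2 fold change -1.39 ± 0.26 SE, adjusted p = 1.30e-04 by edgeR), and H2-Q7, Tap2 and the immunoproteasome subunit Psmb9 had log2 fold changes of -2.16, -1.88 and -1.06. Tap2 and Psmb9 lost their calls without the second library of either group, and Psmb9 also without the first knockdown library. H2 genes are close copies of each other and their single values are uncertain. Without the second knockdown library, or without the second Zscan4 OE library, 3 members were called lower.

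Formative and primed pluripotency genes, which rise as ESCs leave the naive state, fell in 5 of 21 tested members and rose in 2. These shares were 23.8% and 9.52%, against 5.35% and 5.78% of all genes. Sox11, a neural and epiblast factor, measured 3.7 and 5.27 CPM with the knockdown, 17.8 and 18.3 CPM in Zscan4 OE and 11.4 and 11.7 CPM in ESC (log2 fold change -2.02 ± 0.19 SE, adjusted p = 8.11e-09 by edgeR). Lin28b, a repressor of let-7 maturation, measured 15.3 and 11.7 CPM against 45.7 and 42.8 CPM and 28.1 and 27.3 CPM in ESC (log2 fold change -1.71 ± 0.15 SE, adjusted p = 2.51e-09 by edgeR). Both genes were lower with the knockdown than in either other group. Fgf15, Lef1 and Sox3 had log2 fold changes of -1.76, -1.42 and -1.37. Without the first knockdown library Lef1 and Sox3 were not called, nor was Sox3 without the first Zscan4 OE library. The 2 that rose were Foxd3, a forkhead factor of epiblast and neural crest, at 41.7 and 37.4 CPM against 13.5 and 13.5 CPM (log2 fold change 1.55 ± 0.15 SE, adjusted p = 6.13e-09 by edgeR), and the homeobox gene Rhox5, at 15.4 and 19.7 CPM against 5.63 and 6.41 CPM (log2 fold change 1.53 ± 0.16 SE, adjusted p = 3.17e-08 by edgeR). Both lay above ESC with the knockdown (27 and 24.9 CPM and 6.04 and 5.87 CPM). Of the naive pluripotency genes only Dppa3 was called among 29 tested, a share of 3.45% against 5.35% of all genes lower. It measured 0.844 and 2.18 CPM against 5.76 and 5.7 CPM (log2 fold change -1.95 ± 0.33 SE, adjusted p = 4.80e-05 by edgeR). Dppa3 is also known in the 2C-like state, and ESC had 0.685 and 0.3999 CPM. At the edgeR adjusted p alone, with no fold threshold, 13 naive genes were higher and 6 lower. Of all 20953 tested genes 3350 and 3489 were. The core factors moved little in size: the log2 fold changes were 0.34 for Pou5f1, 0.23 for Nanog, -0.05 for Sox2 and -0.03 for Zfp42. Those of Pou5f1 and Nanog passed the adjusted p (0.0084 and 0.0153 by edgeR).

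Neural lineage genes fell in 9 of 26 tested members and rose in 2, against 5.35% and 5.78% of all genes. Map2, a neuronal microtubule protein, measured 5.97 and 5.42 CPM in the knockdown libraries, 16.6 and 16.6 CPM in Zscan4 OE and 5.36 and 4.13 CPM in ESC (log2 fold change -1.54 ± 0.15 SE, adjusted p = 9.46e-09 by edgeR). Elavl3, an RNA-binding protein of neurons, measured 7.53 and 2.71 CPM against 17.4 and 15.6 CPM and 8.78 and 9.06 CPM (log2 fold change -1.65 ± 0.23 SE, adjusted p = 2.80e-06 by edgeR). The knockdown lay above ESC for Map2 and below it for Elavl3, with no overlap. Elavl4, Pax6 and Nrcam fell as well (-1.67, -1.97 and -2.22). Meis2, a homeobox gene that is also a target of retinoic acid, rose, from 1.62 and 1.41 CPM to 6.43 and 14.5 CPM (log2 fold change 2.77 ± 0.29 SE, adjusted p = 4.11e-08 by edgeR). The summed level of the list overlapped between the groups, at 462 and 505 CPM with the knockdown and 472 and 478 CPM in Zscan4 OE. Both groups lay below ESC, at 732 and 732 CPM. Without the first knockdown library 6 members were called lower and 5 higher, and the call of Nrcam was lost.

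Germline and meiosis genes fell in 4 of 30 tested members and rose in 1, or 13.3% and 3.33% against 5.35% and 5.78% of all genes. Ddx4, an RNA helicase of germ cells, measured 14.8 and 16.9 CPM with the knockdown, 36.8 and 39.2 CPM in Zscan4 OE and 14.3 and 15.9 CPM in ESC (log2 fold change -1.26 ± 0.13 SE, adjusted p = 1.71e-08 by edgeR). Sycp3, of the synaptonemal complex, measured 2.53 and 3.24 CPM against 9.58 and 7.98 CPM and 1.37 and 1.4 CPM (log2 fold change -1.61 ± 0.26 SE, adjusted p = 1.97e-05 by edgeR). Dmrt1 and Meiob (-1.74) were the other 2 that fell, and Asz1, of the piRNA pathway, rose (1.89). The call of Asz1 was lost without the first knockdown library and without the second Zscan4 OE library, so that no germline gene was called higher there. Of the imprinted genes 5 of 31 tested fell (16.1%) and 2 rose (6.45%), the latter near the 5.78% of all genes. Igf2r, a receptor that clears IGF2, measured 62.1 and 52.7 CPM against 127 and 136 CPM and 98.1 and 107 CPM in ESC (log2 fold change -1.20 ± 0.09 SE, adjusted p = 1.36e-10 by edgeR). Phlda2 and Cdkn1c, growth-limiting genes of 1 imprinted cluster, fell by 1.63 and 1.34 on the log2 scale, while Kcnq1ot1, the long non-coding RNA of the same cluster, rose from 3.62 and 3.96 CPM to 11.4 and 21.4 CPM (log2 fold change 2.10 ± 0.29 SE, adjusted p = 2.98e-06 by edgeR). Its knockdown values were above ESC at 10.2 and 10.1 CPM. Mest and Magel2 also fell (-1.17 and -1.83) and Grb10 rose (1.09).

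Among the genes that rose, the largest change outside the 2C list was that of Htra1 (chr7:130936111-130985660, plus strand), a secreted serine protease. It measured 91.7 and 56.9 CPM in Dux KD Zscan4 OE, 3.04 and 2.82 CPM in Zscan4 OE and 43.7 and 41.5 CPM in ESC (log2 fold change 4.67 ± 0.21 SE, adjusted p = 3.06e-15 by edgeR). Zscan4 OE was the low group, and the knockdown lay above every other library of the series, of which the highest had 43.7 CPM. Ly6a (chr15:74994877-74998031, minus strand), the surface antigen Sca-1, measured 34.2 and 31.8 CPM against 2.14 and 1.3 CPM and 9.22 and 9.26 CPM in ESC (log2 fold change 4.28 ± 0.24 SE, adjusted p = 2.15e-13 by edgeR). For 14 of the 15 named genes with the highest rise the knockdown lay above both other groups, and for 13 of the 15 Zscan4 OE lay below ESC. Picking genes by their rise favours high knockdown values and low Zscan4 OE values, and the same counts over all genes are not given. The exception to the first was Calb2, the calcium-binding protein calretinin, with 55.7 and 16.6 CPM in the knockdown, 4.66 and 4.35 CPM in Zscan4 OE and 60.5 and 65.6 CPM in ESC (log2 fold change 3.02 ± 0.31 SE, adjusted p = 3.39e-08 by edgeR).

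Some of these genes agreed closely between the knockdown replicates and others did not. Anxa1, a phospholipid-binding annexin, had 23 and 23 CPM against 3.04 and 2.72 CPM and 6.29 and 8.13 CPM in ESC (log2 fold change 3.00 ± 0.16 SE, adjusted p = 6.01e-14 by edgeR). Tgm3, a transglutaminase, had 25.6 and 25 CPM against 3.62 and 3.96 CPM and 11.1 and 13.7 CPM (log2 fold change 2.73 ± 0.22 SE, adjusted p = 2.48e-10 by edgeR), and Catip, a gene of ciliogenesis, had 23.8 and 19.7 CPM against 1.81 and 1.85 CPM and 2.43 and 3.27 CPM (log2 fold change 3.56 ± 0.22 SE, adjusted p = 2.63e-12 by edgeR). In Tgm3 and Catip both knockdown values exceeded all other libraries of the series. By contrast Slc13a5, a citrate transporter, had 89.5 and 33.3 CPM against 5.69 and 6.95 CPM (log2 fold change 3.28 ± 0.28 SE, adjusted p = 9.23e-10 by edgeR). Xaf1, a gene induced by interferon, had 184 and 66.9 CPM against 17.1 and 16.3 CPM (log2 fold change 2.91 ± 0.25 SE, adjusted p = 1.43e-09 by edgeR). In both the first knockdown library was more than 2-fold above the second. Klhdc7a (2.97), Tnfrsf8 (3.00), Ptges (2.87) and Fcgr2b (2.80) made up the rest of the protein-coding genes of this group apart from Cdkn2a and Lars2, which follow.

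Cyclins and CDK inhibitors rose in 4 of 26 tested members, against 5.78% of all genes, and fell in 1. Cdkn2a, which encodes p16 and p19ARF, measured 16.7 and 10.6 CPM with the knockdown, 1.88 and 1.52 CPM in Zscan4 OE and 6.98 and 6.4 CPM in ESC (log2 fold change 3.02 ± 0.26 SE, adjusted p = 1.13e-09 by edgeR). Its neighbour Cdkn2b, for p15, measured 2.08 and 1.73 CPM against 0.841 and 0.76 CPM (log2 fold change 1.25 ± 0.39 SE, adjusted p = 0.0136 by edgeR). Ccnd2, a D-type cyclin, measured 17.7 and 19.6 CPM against 5.24 and 6.03 CPM and 43.6 and 40.2 CPM in ESC, so that the knockdown lay between the groups (log2 fold change 1.72 ± 0.16 SE, adjusted p = 5.30e-09 by edgeR). Ccna1 rose as well (1.91), and the member that fell was Cdkn1c. Cdkn2b was lost in 3 of the 4 fits that left out 1 library.

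Primitive and parietal endoderm genes rose in 5 of 29 tested members and fell in 1, or 17.2% and 3.45% against 5.78% and 5.35% of all genes. Sparc, a matrix glycoprotein, measured 279 and 216 CPM in the knockdown libraries, 105 and 109 CPM in Zscan4 OE and 291 and 292 CPM in ESC (log2 fold change 1.21 ± 0.11 SE, adjusted p = 2.90e-09 by edgeR). Zscan4 OE was the low group. Lrp2, the receptor megalin, measured 9.61 and 22.1 CPM against 5.11 and 5.49 CPM and 37.7 and 34.6 CPM in ESC (log2 fold change 1.56 ± 0.23 SE, adjusted p = 6.02e-06 by edgeR). Fst, which binds activin, rose above both groups, with 4.42 and 5.87 CPM against 0.712 and 0.978 CPM and 2.24 and 2.53 CPM (log2 fold change 2.58 ± 0.40 SE, adjusted p = 1.24e-05 by edgeR). Amn and Krt19 also passed (1.58 and 1.23) and the laminin gene Lamb1 fell (-1.07). Krt19 rested on the first knockdown library, without which its log2 fold change was 0.02. Without that library Amn was at 0.98 and Sparc, just under the threshold, also lost its call, and without the second Zscan4 OE library Amn was at 0.98. Without the second knockdown library Lrp2 was at 0.85 and Lamb1 at -0.82, and neither was called. The summed level of the endoderm markers, in which abundant genes weigh most, moved with the groups. It was 1411 and 1122 CPM with the knockdown, 950.2 and 988 CPM in Zscan4 OE and 1619 and 1635 CPM in ESC. The median log2 fold change of the list against ESC was 0.11 with the knockdown and -0.11 in Zscan4 OE. The part of such cells in the other results was not tested. Without the first knockdown library, or without the second Zscan4 OE library, 3 members were called higher. Among collagens and laminins 3 of 52 rose and 6 fell, or 5.77% and 11.5% against 5.78% and 5.35% of all genes, so that the share that rose was near that of all genes. Col13a1, a membrane collagen, was among those that fell (-1.54). Lama3 rested on the second knockdown library, its log2 fold change being 1.55 with it and 0.10 without it. Without the second knockdown library 2 collagen and laminin genes were called lower, and without the first Zscan4 OE library 3.

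Wnt targets divided. Of 19 tested members 3 rose (15.8%) and 5 fell (26.3%), against 5.78% and 5.35% of all genes, with a median log2 fold change of -1.02. Notum, a secreted inhibitor of Wnt, measured 36.5 and 29.4 CPM with the knockdown, 8.02 and 10.3 CPM in Zscan4 OE and 31.6 and 27.1 CPM in ESC (log2 fold change 1.84 ± 0.14 SE, adjusted p = 9.94e-11 by edgeR). Its knockdown values overlapped ESC. Axin2, a feedback inhibitor inside the cell, measured 6.3 and 8.21 CPM against 15.5 and 18.8 CPM and 18.2 and 14.8 CPM in ESC, lower than both (log2 fold change -1.25 ± 0.15 SE, adjusted p = 4.28e-07 by edgeR). Wnt6 and Ccnd2 rose with Notum (1.71 and 1.72), while Cdx1, Rnf43, Lef1 and Nkd1 fell with Axin2 (-1.58, -1.61, -1.42 and -1.19). Rnf43, which removes Wnt receptors, was below 2 CPM in all 4 libraries and was lost in each of the 4 fits that left out 1 library.

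BMP and TGF-beta targets also moved both ways, with 3 of 21 higher (14.3%) and 5 lower (23.8%), against 5.78% and 5.35% of all genes. Lefty1, already counted in the Nodal list, is 1 of those that fell. Id2, an inhibitor of helix-loop-helix factors, fell to 1.36 and 2.26 CPM from 6.6 and 7.77 CPM (log2 fold change -2.01 ± 0.22 SE, adjusted p = 8.65e-08 by edgeR), whereas Id4, of the same family, rose to 13.6 and 8.28 CPM from 3.88 and 3.15 CPM (log2 fold change 1.65 ± 0.27 SE, adjusted p = 3.19e-05 by edgeR). Interferon response genes rose in 3 of 25 tested members (12%) and fell in 1 (4%). Besides Xaf1, Oas1a, a sensor of double-stranded RNA, rose from 3.43 and 3.86 CPM to 13.6 and 11.4 CPM (log2 fold change 1.77 ± 0.19 SE, adjusted p = 4.42e-08 by edgeR), and ESC had 7.72 and 6.27 CPM. Oasl1 passed narrowly (log2 fold change 1.22, edgeR adjusted p = 0.0491) and Bst2, the virus-tethering protein tetherin, fell from 25.8 and 22.6 CPM to 12.3 and 8.43 CPM (log2 fold change -1.21 ± 0.15 SE, adjusted p = 6.66e-07 by edgeR). Oasl1 was lost under 10 of the alternatives tried, and Bst2 without the second knockdown library.

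**Figure D2:**
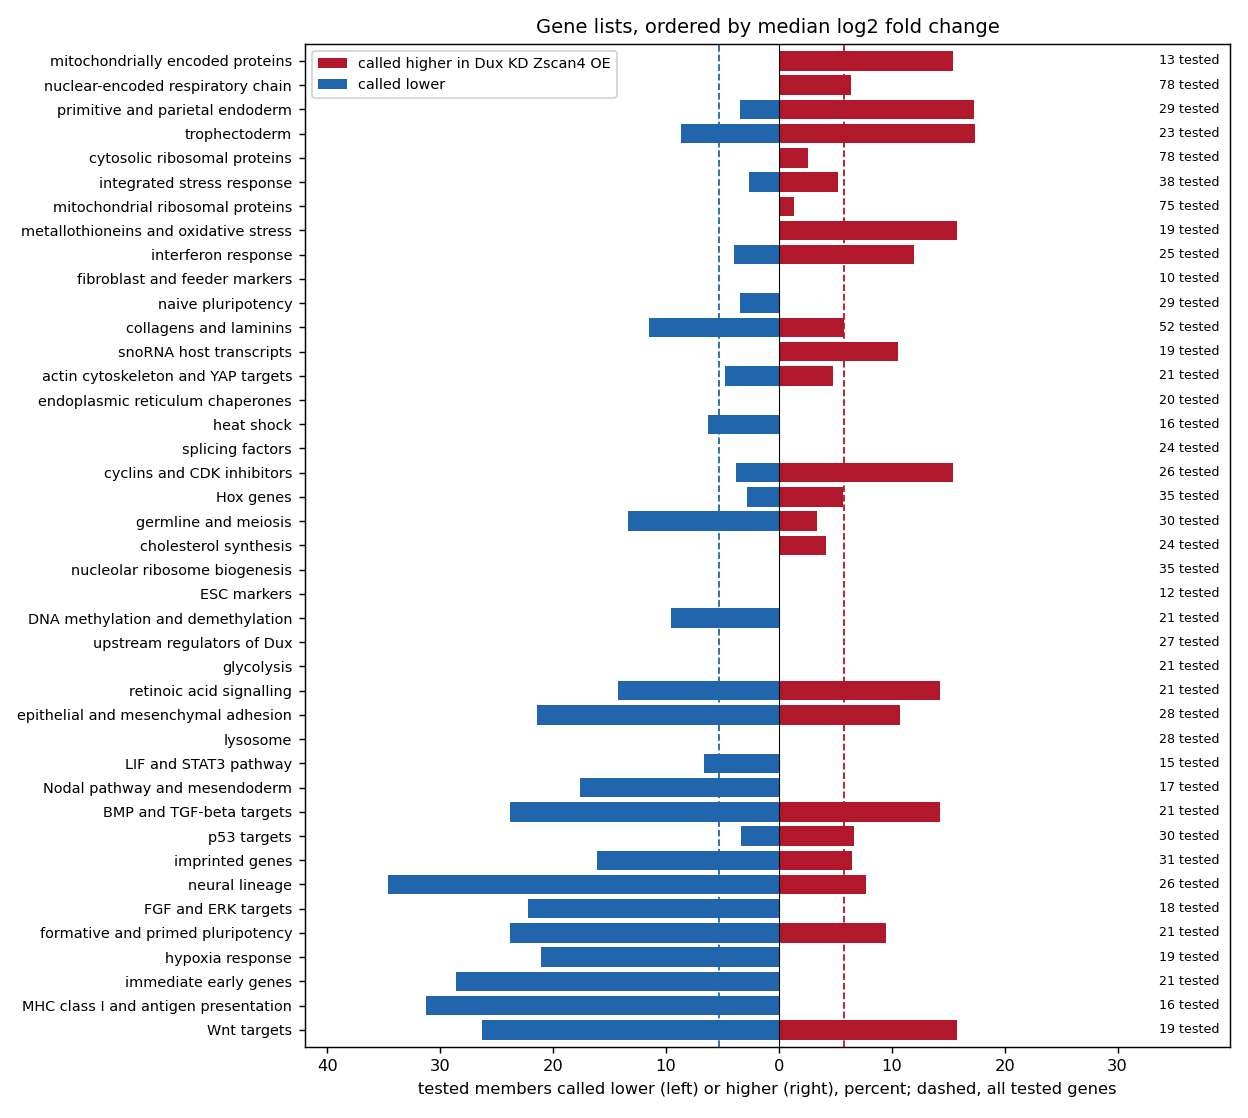
Share of the tested members of each gene list that were called lower (left) or higher (right) in Dux KD Zscan4 OE against Zscan4 OE, in percent, for lists with at least 10 tested members other than the 2C genes. Dashed lines mark the shares over all tested genes, 5.35% lower and 5.78% higher, and neural lineage genes have the longest bar on the left.

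Genes of oxidative phosphorylation and of ribosomes shifted upwards by small amounts. Of 78 nuclear-encoded respiratory chain genes 73 had a positive log2 fold change, the median was 0.47 and 5 reached the 2-fold threshold, a share near the 5.78% of all genes. Atp5k, a subunit of ATP synthase, measured 38.8 and 34.7 CPM with the knockdown, 13.6 and 13.7 CPM in Zscan4 OE and 24 and 25.2 CPM in ESC (log2 fold change 1.43 ± 0.18 SE, adjusted p = 1.04e-06 by edgeR). The others were Ndufb4 of complex I, Uqcr10 and Uqcr11 of complex III and Atp5md, with log2 fold changes of 1.14, 1.03, 1.08 and 1.07. The 78 cytosolic ribosomal protein genes had a median of 0.33, with Rps29 and Rps27 called higher (1.22 and 1.01), and the 75 mitochondrial ones a median of 0.30, with Mrpl41 called (1.22). The shares called higher, 2.56% and 1.33%, were below the 5.78% of all genes. Of 13 proteins encoded in mitochondria mt-Co2 and mt-Nd3 rose (1.07 and 1.22), or 15.4% against 5.78% of all genes. Their median was 0.61, and 12 were positive. Against ESC that median was 0.71 with the knockdown and -0.02 in Zscan4 OE. Of the metallothionein and oxidative stress genes 3 of 19 rose, or 15.8% against 5.78% of all genes. Gpx1, a glutathione peroxidase, rose from 162 and 151 CPM to 356 and 315 CPM (log2 fold change 1.10 ± 0.09 SE, adjusted p = 3.82e-10 by edgeR). Nqo1 and Mt1 rose by log2 fold changes of 1.10 and 1.27.

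Many of these genes are short, and gene length moved with the groups. The median log2 fold change was 0.23 for genes of up to 500 exonic bases, 0.24 from 500 to 1000, 0.22 from 1000 to 2000, 0.06 from 2000 to 4000 and -0.09 above 4000. With an offset that removes the trend of counts with length in each library, the same medians were 0.05, 0.04, 0.05, 0.02 and 0.00. The medians of the gene groups then stayed positive, at 0.36 for the respiratory chain, 0.24 for cytosolic and 0.22 for mitochondrial ribosomal proteins, but fewer genes passed the threshold. Under the offset Atp5k, Ndufb4 and Atp5md remained called in the respiratory chain, Rps29 among cytosolic and Mrpl41 among mitochondrial ribosomal proteins, mt-Nd3 among those encoded in mitochondria and Mt1 among the oxidative stress genes. Leaving out 1 library at a time gave 2 to 9 calls in the respiratory chain, 2 of them without the first knockdown library and 9 without the first Zscan4 OE library. It gave 0 to 5 among cytosolic ribosomal proteins, none without the first knockdown library and 5 without the second, and 1 to 5 among mitochondrial ones, the highest again without the second. Without the first knockdown library Gpx1, at 0.99, Mt1, at 0.68, and mt-Co2, at 0.92, were below the threshold too, which left 1 oxidative stress gene called.

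Reads on genes of up to 500 bases made up 1.09 and 1.44% of the 2 knockdown libraries, against 0.5004% to 0.87% in the other 24. A single feature accounts for much of that excess in reads. Gm23935, annotated as a miRNA gene of 57 bases on chromosome 16, took 0.378 and 0.78% of the reads, against 0.0539 and 0.0647% in Zscan4 OE and at most 0.0647% in any other library. When ribosomal RNA features and 7 features that rose with them, Gm23935 included, were set aside, the share on genes of up to 500 bases was 0.719 and 0.675%, inside the range of 0.486% to 0.89% of the other 24 libraries, and 0.593 and 0.546% in Zscan4 OE. Up to 1000 bases it was still 3.84 and 3.82%, against 3.02 and 2.85% in Zscan4 OE. Up to 2000 bases it was 15.96 and 15.56%, against 13.44 and 12.93%. In both classes only the 2 libraries of ESCs with pladienolide B alone were higher (4.32 and 4.01%, and 19.91 and 19.20%).

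**Figure D3:**
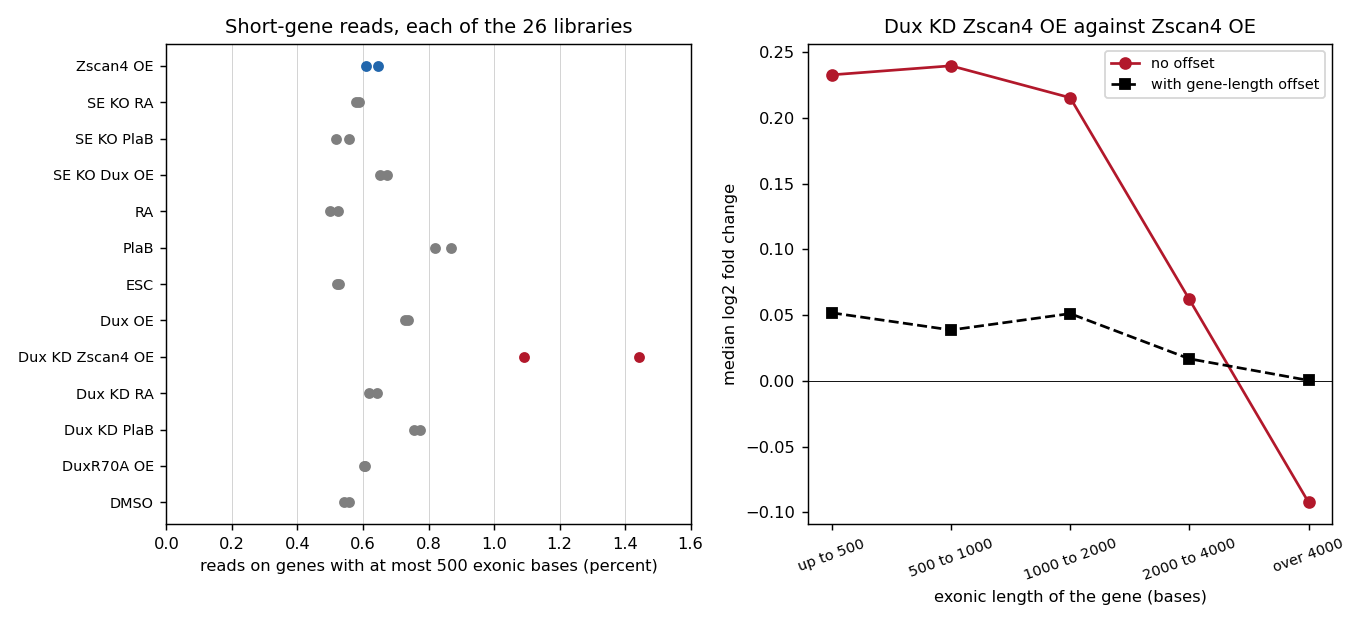
Left, percent of the reads of each of the 26 libraries that fall on genes of at most 500 exonic bases, 2 points per group, with the 2 Dux KD Zscan4 OE libraries at 1.09% and 1.44% and all others at or below 0.870%. Right, median log2 fold change of Dux KD Zscan4 OE against Zscan4 OE by exonic length class, without and with the gene-length offset, where the medians fall from 0.23 to -0.09 and from 0.05 to 0.00.

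The ribosomal RNA feature CT010467.1 (chr17:39846353-39848201, plus strand) rose with the knockdown, and more so in the second replicate. It measured 19520.5 and 45907 CPM in Dux KD Zscan4 OE, 3961 and 5724 CPM in Zscan4 OE and 2121 and 2121 CPM in ESC (log2 fold change 2.76 ± 0.22 SE, adjusted p = 3.61e-10 by edgeR), or 1.86 and 4.23% of the reads against 0.393 and 0.567%. The libraries were selected for poly(A) RNA. Lars2, the mitochondrial leucyl-tRNA synthetase, had the same profile, with 1832 and 3740.4 CPM against 186 and 219 CPM and 166 and 163 CPM (log2 fold change 3.78 ± 0.24 SE, adjusted p = 3.77e-12 by edgeR). So did Gm23935, with 3966 and 8457 CPM against 543 and 653 CPM (log2 fold change 3.38 ± 0.25 SE, adjusted p = 7.29e-11 by edgeR). Gm15564 and 6330410L21Rik, annotated as antisense genes and the 2 predicted genes with the highest rise, had 11.8 and 22.3 CPM against 0.906 and 1.36 CPM and 19.9 and 37 CPM against 2.26 and 2.23 CPM. Strand use in the counting is not given, so their reads cannot be told apart from those of the genes opposite. In all 5 the second knockdown library was about 2-fold above the first. The part of ribosomal RNA in the other results was not tested beyond leaving these features out of the table, after which 1203 of the 1212 higher and 1120 of the 1120 lower genes were still called the same way.

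**Figure D4:**
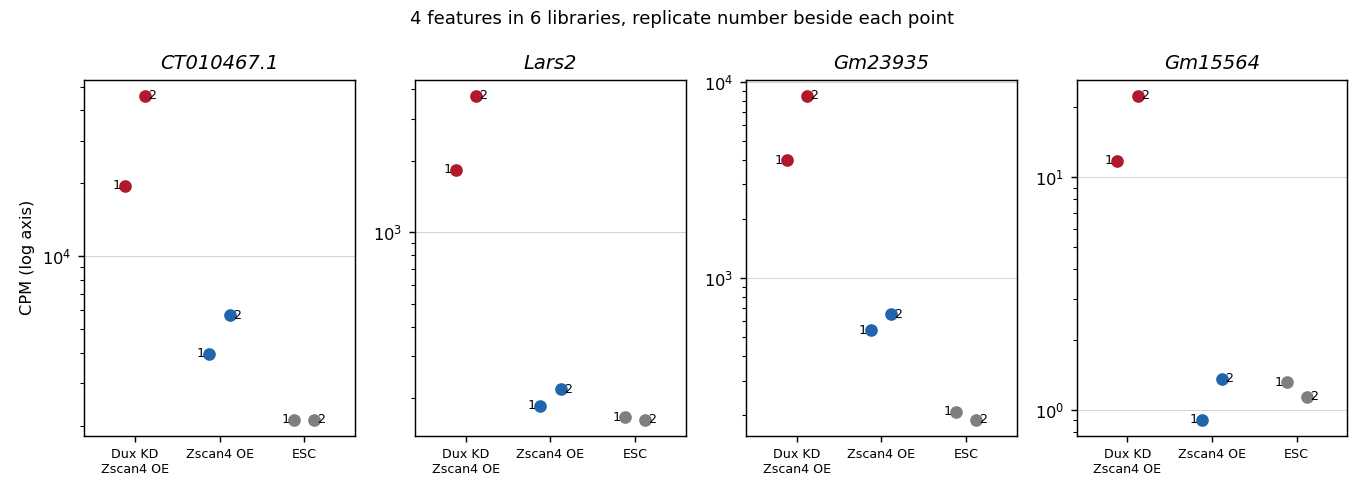
CPM, on log axes that differ between panels, of the ribosomal RNA feature CT010467.1, Lars2, Gm23935 and Gm15564 in the 2 Dux KD Zscan4 OE, 2 Zscan4 OE and 2 ESC libraries, with the replicate number beside each point. In all 4 panels both knockdown libraries lie above the other 4, and replicate 2 lies above replicate 1.

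Genes that mark trophectoderm, the outer layer of the blastocyst, were called higher in 4 and lower in 2 of 23 tested members. These shares were 17.4% and 8.70%, against 5.78% and 5.35% of all genes. A positive log2 fold change was found in 16 members and a negative one in 7, with a median of 0.39. The 2 that fell were well expressed: Tfap2c, a transcription factor also needed in germ cells, measured 33.6 and 35 CPM with the knockdown, 75.6 and 79.9 CPM in Zscan4 OE and 64.9 and 63.3 CPM in ESC (log2 fold change -1.18 ± 0.11 SE, adjusted p = 2.25e-09 by edgeR), and Cdh3, or P-cadherin, measured 23.5 and 12.6 CPM against 48.1 and 53.5 CPM and 44.8 and 53 CPM (log2 fold change -1.48 ± 0.16 SE, adjusted p = 6.82e-08 by edgeR). Both lay below both other groups. Those that rose were low, among them the keratin gene Krt7, at 1.69 and 0.678 CPM against 0.194 and 0.109 CPM, and Gata3, at 0.714 and 1.2 CPM against 0.194 and 0.163 CPM. Without the first knockdown library 1 member was called higher, and without either Zscan4 OE library 2. The summed level of this list was 2058 and 1449 CPM with the knockdown and 2374 and 2454 CPM in Zscan4 OE, and the part of such cells in the other results was not tested.

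Adhesion genes of epithelial and mesenchymal cells fell in 6 of 28 tested members (21.4%) and rose in 3 (10.7%). Those that fell included Esrp1 and Cldn6 and, with log2 fold changes of -1.85, -1.55 and -1.36, the repressor Zeb2, the hyaluronan receptor Cd44 and the integrin chain Itgav. N-cadherin (Cdh2) rose from 0.582 and 1.09 CPM to 1.95 and 3.39 CPM (log2 fold change 1.62 ± 0.33 SE, adjusted p = 4.26e-04 by edgeR), and ESC had 1.81 and 1.73 CPM, just below the knockdown values. S100a6 and Snai2 rose as well (1.64 and 1.37). Without the second Zscan4 OE library 3 members were called lower. Retinoic acid signalling genes moved both ways, 3 higher and 3 lower of 21, or 14.3% each. Aldh1a2, which makes retinoic acid, fell from 3.43 and 2.82 CPM to 1.17 and 1.28 CPM (log2 fold change -1.35 ± 0.32 SE, adjusted p = 0.00192 by edgeR), whereas Aldh1a3, of the same family, rose (1.66). Dhrs3, which limits it, rose from 0.777 and 0.435 CPM to 1.95 and 1.73 CPM (log2 fold change 1.63 ± 0.34 SE, adjusted p = 4.77e-04 by edgeR), as did Meis2. Of the Hox genes 2 of 35 tested rose and 1 fell, Hoxa4 and Hoxc12 against Hoxb7, all 3 below 3 CPM in each of the 4 libraries. These shares, 5.71% and 2.86%, were at or below the 5.78% and 5.35% of all genes. Without the second Zscan4 OE library no Hox gene was called higher.

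Stress pathways gave few calls. Of 30 p53 targets, Ak1, an adenylate kinase, rose from 61 and 62.1 CPM to 135 and 149 CPM (log2 fold change 1.20 ± 0.09 SE, adjusted p = 2.96e-11 by edgeR), Cd80 rose (1.32) and the death receptor gene Fas fell (-2.09). The call of Fas was lost without the first knockdown library and without the second Zscan4 OE library. At the adjusted p alone, with no fold threshold, 6 were higher and 14 lower, against 3350 and 3489 of all 20953 tested genes. Genes of the integrated stress response had a positive log2 fold change in 29 of 38 tested members, with a median of 0.30. At the adjusted p alone 19 of them were higher and 2 lower. With the fold threshold only Pck2 and Atf5 were called higher (1.09 and 1.04) and Vldlr lower (-1.02). The median of this list against ESC was -0.31 with the knockdown and -0.67 in Zscan4 OE. Pck2, a mitochondrial enzyme of the pathway to glucose, measured 36.1 and 23 CPM with the knockdown, 14.7 and 13.2 CPM in Zscan4 OE and 44.6 and 43.2 CPM in ESC, the knockdown lying between the other groups. Without the second Zscan4 OE library 5 members were called higher, without the second knockdown library 4, and without either first library 1. Hspa1b, an inducible HSP70 with a near-identical neighbour, was the only heat shock gene called of 16 (-1.03), and Pmvk the only gene of cholesterol synthesis of 24 (1.26). By DESeq2 1 heat shock gene was called higher. Hspa1b was lost without either second library and Pmvk without the first knockdown library.

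Dppa3 and Gadd45b, which takes part in DNA demethylation, were the 2 genes that fell among 21 of DNA methylation and demethylation, Gadd45b from 9.38 and 7.22 CPM to 3.96 and 2.11 CPM (log2 fold change -1.42 ± 0.23 SE, adjusted p = 2.94e-05 by edgeR). Snhg20 and Snhg10 rose among 19 hosts of small nucleolar RNAs (1.16 and 2.85), Snhg20 not without the first knockdown library. Among 21 genes of the actin cytoskeleton and YAP targets, Anxa1 rose and Cnn1, a calponin, fell (-2.39). No member was called among 35 tested genes of nucleolar ribosome biogenesis, 24 splicing factors, 28 lysosome genes, 20 chaperones of the endoplasmic reticulum, 21 glycolysis genes, 27 upstream regulators of Dux and 7 replication-dependent histones. At the edgeR adjusted p alone 3350 of all 20953 tested genes were higher and 3489 lower, which is the background for the counts that follow. By that measure 3 of the upstream regulators were higher and 9 lower, with a median log2 fold change of -0.09. Among lysosome genes 4 were higher and 10 lower (median -0.19). For glycolysis these counts were 2 and 3, for splicing factors 5 and 2, for chaperones 3 and 4, for nucleolar genes 5 and 10, and for histones 0 and 0. By DESeq2 none of these 7 lists had a call at both thresholds. Glycolysis genes gave 2 lower calls with library totals, 2 with no low-count filter, 3 without the first knockdown library and 1 without the first Zscan4 OE library. For lysosome genes 1 was called lower without the first knockdown library and 1 histone gene higher without the second Zscan4 OE library.

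The knockdown libraries were also set against untreated ESC, in values that share libraries with the main comparison and are given side by side only. Of 20953 genes 1167 were higher in Dux KD Zscan4 OE than in ESC (5.57%) and 534 lower (2.55%), or 8.12% in all, while 1520 were higher in Zscan4 OE than in ESC (7.25%) and 919 lower (4.39%). The 2C list had a median log2 fold change against ESC of -2.34 in Dux KD Zscan4 OE and 3.00 in Zscan4 OE, and with levels raised to the floor the former was -1.63 over 33 members. Immediate early genes had medians of 0.02 and 0.51, hypoxia genes of -0.08 and 0.46, and genes of MHC class I and antigen presentation of -0.07 and 0.57. In these 3 lists the knockdown median was near 0. Respiratory chain genes had medians of 0.10 and -0.38, and mitochondrial ribosomal proteins of -0.05 and -0.36. Formative genes differed from these, with -0.49 in the knockdown and 0.08 in Zscan4 OE, as did neural genes, with 0.29 and 0.49. The summed level of the neural list, in contrast to its medians, was below ESC in both groups, as given above. Germline genes had medians of 0.60 and 0.80. Of their 30 tested members 12 were called higher and 3 lower than ESC in the knockdown, where 5.57% and 2.55% of all genes were, and 13 and 1 in Zscan4 OE, where 7.25% and 4.39% were.

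Among the named genes, Catip, Lars2 and Xaf1 were higher than in ESC in Dux KD Zscan4 OE, with log2 fold changes of 2.93, 4.08 and 2.47. Their values in Zscan4 OE against ESC were -0.63, 0.30 and -0.45 and did not pass. Lars2 had the profile of the ribosomal RNA feature CT010467.1, as described above. Dmrt1 and Ina were lower than in ESC, with -2.39 and -2.43, against -0.26 and 0.17 in Zscan4 OE. Neurod1 and Tbc1d9 had the opposite profile, with 3.14 and 2.36 in Zscan4 OE and 0.57 and -0.26 in the knockdown, where neither passed.

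The series holds Dux knockdown under 2 other treatments, retinoic acid (RA, 0.53 µM for 48 h) and the splicing inhibitor pladienolide B (PlaB, 4 nM for 4 days), each with 2 libraries against 2 of the same treatment, none shared with the comparison above. The knockdown changed 1344 genes upwards (6.41%) and 950 downwards (4.53%) in RA, 10.9% of all tested, and 5468 (26.1%) and 6041 (28.8%) in PlaB, 54.9% of all tested. Of the 1212 genes that rose under Zscan4 OE, 269 also rose in RA, which is 22.2% of the former and 20.01% of the latter, and 63 fell. For the 1120 that fell, 182 also fell in RA (16.3% and 19.2%) and 35 rose. In PlaB 277 of the genes that rose also rose (22.9% and 5.07%) while 433 fell, and 571 of those that fell also fell (51.0% and 9.45%) while 245 rose. A test of the difference between the 2 knockdown effects called 1266 genes higher (6.04%) and 1303 lower (6.22%) against RA, and 4942 (23.6%) and 5371 (25.6%) against PlaB.

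Lefty1 fell with the knockdown under all 3 treatments, with log2 fold changes of -3.29 in Zscan4 OE, -1.63 in RA and -2.22 in PlaB, and the first of these differed from the others (edgeR adjusted p = 1.86e-06 and 2.30e-04). Egr1 fell in all 3, with -2.11, -1.68 and -1.75, and the differences of -0.42 and -0.36 did not pass (standard errors 0.32 and 0.27, edgeR adjusted p = 0.354 and 0.255). Tgm3 rose in all 3, with log2 fold changes of 2.73, 2.63 and 4.75, and so did Klhdc7a, with 2.97, 1.20 and 3.45, and Foxd3, with 1.55, 2.22 and 5.57. Htra1 rose by 4.67 under Zscan4 OE, by 1.42 in PlaB and had 0.21 in RA, where it did not pass. Ly6a went opposite ways, with 4.28 under Zscan4 OE and -4.48 in PlaB. The ribosomal RNA feature CT010467.1 likewise had 2.76 under Zscan4 OE, -1.11 in RA and -4.86 in PlaB. For Dmrt1 the values were -2.13, -1.59 and 2.39, a fall in the first 2 and a rise in PlaB.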

How the data were processed

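The series holds 26 RNA-seq libraries of R1 mouse ESCs in 13 groups of 2. The deposited table gives read counts per gene for 55291 genes, which the authors made from poly(A) libraries (NEBNext Ultra II kit) and did not normalise. Per the labels, FastQC, Trimmomatic, STAR, featureCounts and DESeq2 were used on mm10. Versions, and the settings for strand and for reads that map to several places, are not given in the sources used here, so counts of repeated genes such as Dux and Zscan4 are uncertain. No column belonged to another series (0 columns). Positions, types and exon lengths came from GENCODE M21 (GRCm38), which named 53292 of the genes.

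Groups came from the sample labels. The members and gene lists were chosen with earlier results of these data known, and the lists are descriptions by counts and medians. All 26 libraries were fitted together with edgeR 4.0.16 (R 4.3.3) using TMM scaling, filterByExpr, which left 20953 genes, and the quasi-likelihood F-test with Benjamini-Hochberg adjustment over all genes tested. Calls needed an adjusted p under 0.05 and a log2 fold change of at least 1 either way, with a prior count of 0.125. Standard errors were derived from the test statistic. The fit was tested on simulated data. Depth ran from 14401452 to 39402840 counts per library. Two-sided tests were used throughout, and floors cover counting error only.

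Named genes were Duxf3 and Zscan4c, from each of 43 lists up to 6 called genes with the largest change and up to 4 textbook members, and the 15 genes with the largest change each way outside the 2C list whose log2 CPM averaged 2 or more, with no overlap between the groups and a name not of the predicted kind, plus 3 predicted genes each way. Abcb5 was added after its values were seen. Some genes that the rule names are not reported here. Promoters were searched for the Dux motif and the Zscan4 motif on both strands. Alternatives were RLE scaling, library totals, no low-count filter, DESeq2 1.42.0, only the compared groups, a replicate block, a gene-length offset (lowess, span 0.3), other thresholds and leaving out 1 library at a time. Replicate numbers did not pair the libraries: the correlation of deviations of same-numbered libraries was -0.0166 between the 2 groups compared.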

Additional observations from a re-analysis of the deposited data

Results flagged for a closer look

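The tests of the difference between the knockdown effect under Zscan4 OE and that under the other treatments called many genes, each in 2 libraries against 2 and with edgeR. Against RA 1266 genes had a higher and 1303 a lower effect under Zscan4 OE. Against PlaB the counts were 4942 and 5371. The Dux KD groups differ from each other in labelled treatment and time, and their part in these differences was not tested.

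Genes with a larger rise under Zscan4 OE than in RA were Htra1 (difference in log2 fold change 4.46), Slc13a5 (4.45), Lars2 (3.93), Ly6a (3.72) and Catip (2.54). Lars2, here and against PlaB, is the gene that had the profile of the ribosomal RNA feature CT010467.1. For Slc13a5 the effects were 3.28 under Zscan4 OE and -1.18 in RA, opposite in sign. A deeper fall than in RA was found for Neurod1 (-4.09), Ina (-3.27), Stra8 (-2.05), Lefty1 (-1.66) and Tbc1d9 (-1.59).

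Against PlaB the differences were 8.76 for Ly6a, 6.07 for Lars2, 3.88 for Catip and 3.24 for Htra1. Lefty1 (-1.07), Tbc1d9 (-4.98), Ina (-2.57) and Neurod1 (-1.77) fell further under Zscan4 OE than in PlaB. For Tbc1d9 the effects went opposite ways, -2.62 under Zscan4 OE and 2.36 in PlaB. Stra8 fell less than in PlaB, with a difference of 2.53.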

How the results depend on the processing

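The main counts of 1212 higher and 1120 lower genes kept within 1.5 times under RLE scaling, library totals, no low-count filter, DESeq2 (1068 and 1035), the replicate block and the gene-length offset. They moved to 795 higher with only the compared groups in the fit, to 796 higher at an adjusted p under 0.01, and to 3350 and 3489 with no fold threshold. For Dux KD Zscan4 OE against ESC there were 349 lower with only the compared groups, and 3248 and 3698 with no fold threshold. Zscan4 OE against ESC gave 603 lower with library totals and 3970 and 4111 with no fold threshold. The difference from the effect in RA gave 2968 and 3111 with no fold threshold. The cause of the first 2 moves was not tested beyond the smaller number of libraries and the stricter threshold. With only the compared groups in the fit, 752 genes were lower in the main comparison and 65.5% of its calls were kept. Of the named genes, Jund, Krt19, Lama3, Lef1, Nrcam, Oasl1, Pax6, Psmb9 and Tap2 lost their calls in that fit.

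Leaving out 1 library at a time gave 811 to 1065 higher and 911 to 1145 lower genes in the main comparison, 794 to 1093 and 466 to 688 against ESC, 1188 to 1284 and 727 to 782 for Zscan4 OE against ESC, 4220 to 4861 and 5280 to 5738 for the difference from PlaB, and 887 to 1519 and 1079 to 1486 for that from RA. Between 66.8% and 72.7% of the main calls were kept in these fits, and none turned sign. With the replicate block the main counts were 1178 and 1117, and 97.6% of the calls were kept. As the replicate numbers did not pair the libraries, the block shows only how the counts move. Leaving out ribosomal RNA features, an alternative chosen after seeing the data, kept 99.6% of the calls.

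Of the genes named by the rule, 42 lost their call under at least 1 alternative. Sox2 and Zfp42, neither called, turned sign when 1 library was left out: Sox2 ranged from -0.30 to 0.13 and Zfp42 from -0.15 to 0.060 on the log2 scale, the positive values without the second knockdown library. With 2 libraries a group and knockdown replicates that differ more than the others, small changes of single genes and of lists with few calls are the least certain.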
